A study of Mus musculus with 28 samples.

Results

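The epidermal growth factor (EGF) receptor family and its ligands were followed in mouse dorsal skin through 10 genes: the receptor gene Egfr, the related receptor genes Erbb2 and Erbb3, and the ligand genes Areg, Ereg, Hbegf, Tgfa, Btc, Epgn and Egf. Probes were chosen by gene symbol in the array's annotation, which gave 11 probes of 7 genes, among 25697 probes and 16593 named genes in all. Erbb2, Erbb3 and Areg had no matched probe and were not analysed here. Testing needed a detection p-value, which sets a probe's signal against negative control beads, below 0.01 on at least 6 of the 28 arrays. This left 7 member probes among 12834 tested probes: 4 of Egfr and 1 each of Hbegf, Btc and Epgn.

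The arrays were Illumina BeadChips, which average the brightness of many identical beads for each probe. They held total RNA of dorsal skin from 6 mutant samples at P15 (15 days of age), 6 control samples at P15, 6 mutant samples at P10 (10 days of age) and 10 control samples at P10, all on a mixed C57/BL6;129Ola background. Mutants carried K14-cre with a conditional allele of Gab1 (Gab1fl). The K14 promoter is active in basal keratinocytes of the epidermis and hair follicle, so the many skin cells that do not descend from these keep the gene. The labels do not give the alleles of the controls. P15 arrays lay on slides 3 and 4 with 4 of the P10 controls, and P10 mutants lay on slides 1 and 2 with the other 6 P10 controls. Mutant effects are therefore mutant minus control differences within slides, in log2 units of normalized signal. Within a slide, positions A to C held mutants, D to F same-age controls and, on slides 3 and 4, G and H P10 controls, so genotype and position on the slide cannot be told apart. Whether replicates are separate animals is not in the labels, and p-values here speak only of the spread between the samples.

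Receptors of this family are tyrosine kinases of the cell surface. Their ligands are made as membrane-anchored precursors, and ADAM metalloproteases cut most of them free. Bound receptor passes the signal to adaptors such as GAB1, which docks the phosphatase SHP2 and PI3 kinase and so feeds the ERK and AKT pathways. In skin the EGF receptor is made mainly by basal keratinocytes and the outer root sheath of the follicle, and mice that lack its signal or the ligand TGF alpha have wavy hair.

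Arrays detected 8836 to 13610 probes, and their median raw signals lay between 53.2 and 172. Both the lowest number and the highest median belonged to P15 mutant replicate 5 on slide 3, so values without this array are given below where they change a call. Basal keratinocyte markers (Krt5, Krt14, Itga6, Itgb4, Trp63 and Col17a1) were all tested. The number of arrays limits the precision. Gab1 itself had normalized log2 signals of 9.65 to 10.30 in P15 mutants, against 11.07 to 11.66 in P15 controls, and of 9.58 to 9.92 in P10 mutants, against 10.80 to 11.44 in the 6 P10 controls sharing their slides. It was 2.59-fold lower in P15 mutants (limma adjusted p = 1.77e-09) and 2.55-fold lower in P10 mutants (limma adjusted p = 8.5e-09), and the part of the gene that the probe reads was not given in the sources used here.

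Epgn, Ereg, Areg and Btc lie next to each other in this order on mouse chromosome 5, with no other protein-coding gene between them. Epgn and Btc, the outer genes of this cluster, were the member genes that differed most at P15 and did so in opposite directions, so the bases before their starts are shown with those of Egfr, the receptor gene. Each sequence is the 250 bases before the gene start in RefSeq's annotation of GRCm38.p6, at chr5:91027267-91027516 (plus strand, Epgn), chr5:91402995-91403244 (minus strand, Btc) and chr11:16751953-16752202 (plus strand, Egfr), read 5′ to 3′ on the gene's strand. Capitals mark a match to a motif searched on both strands.
Epgn: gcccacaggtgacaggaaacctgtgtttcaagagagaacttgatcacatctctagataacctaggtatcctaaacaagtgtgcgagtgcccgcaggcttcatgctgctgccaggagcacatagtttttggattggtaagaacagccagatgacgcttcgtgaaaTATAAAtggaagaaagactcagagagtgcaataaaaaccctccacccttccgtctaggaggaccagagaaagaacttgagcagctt
Btc: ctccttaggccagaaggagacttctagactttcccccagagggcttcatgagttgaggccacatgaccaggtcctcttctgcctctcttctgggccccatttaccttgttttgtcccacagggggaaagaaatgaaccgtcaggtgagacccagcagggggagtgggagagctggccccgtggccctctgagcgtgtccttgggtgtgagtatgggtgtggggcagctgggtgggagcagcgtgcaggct
Egfr: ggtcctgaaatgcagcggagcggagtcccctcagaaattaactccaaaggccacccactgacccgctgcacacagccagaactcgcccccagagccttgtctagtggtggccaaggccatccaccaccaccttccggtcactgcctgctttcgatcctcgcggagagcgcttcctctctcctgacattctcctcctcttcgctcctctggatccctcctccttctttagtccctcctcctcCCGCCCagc
The Epgn window held the TATA box letters TATAAA 86 bases before the start, and 12.4% of 32841 mouse promoter windows of this length held them. The Egfr window held 1 SP1 GC box (GGGCGG) on the minus strand, 9 bases before the start, as did 32.7% of windows in any position. The Btc window held none of the letters searched. None of the 3 windows held the AP-1 motif TGANTCA (6.75% of windows), the EGR1 motif GCGNGGGCG (4.7%, overlapping the GC box by GGGCG) or the cyclic AMP element TGACGTCA (1.55%). GC content was 46.8% in the Epgn window, 59.6% in the Btc window and 60.8% in the Egfr window, against a median of 52.4% over all windows. RefSeq promoter entries matched 7 of the 10 members.

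The first comparison asked how the family differed between mutant and control skin at P15. The ligand gene Epgn rose, and the ligand genes Btc and Hbegf and 1 of the 4 Egfr probes fell. Of the 7 member probes 4 passed the threshold (limma adjusted p below 0.05 over all tested probes), 1 higher and 3 lower. Of all 12834 tested probes 19.8% passed, 9.07% higher and 10.7% lower. In whole skin, fewer cells of a type and less RNA per cell cannot be told apart.

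Epgn encodes epigen, a ligand of the EGF receptor made in epithelia. Its probe (ILMN_2753623) had normalized log2 signals of 9.07 (lowest), 9.56 (median) and 9.96 (highest) in the 6 P15 mutants, against 8.40, 8.50 and 8.76 in the 6 P15 controls. The groups did not overlap on either slide. The P15 mutant mean was 9.56 ± 0.30 (SD, n = 6) and the P15 control mean 8.55 ± 0.15 (SD, n = 6). Epgn was 2.03-fold higher in P15 mutants, a log2 difference of 1.02 (SE 0.14, 95% confidence interval 0.73 to 1.31, limma adjusted p = 7.71e-06), in 6 of 6 mutants against the control mean of their slide. The log2 difference was 0.99 on slide 3 and 1.05 on slide 4.

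Btc encodes betacellulin, which binds the EGF receptor and ERBB4. Its probe (ILMN_2734097) had log2 signals of 7.20, 7.66 and 7.77 (lowest, median, highest) in P15 mutants, against 7.59, 8.97 and 9.25 in P15 controls. Mutants were tightly grouped, whereas controls spread widely. On slide 3 the groups were well apart, with mutants at 7.21 to 7.76 and controls at 8.91 to 9.25. On slide 4 they overlapped, with mutants at 7.20 to 7.77 and controls at 7.59 to 9.04. The mean was 7.54 ± 0.27 (SD, n = 6) in P15 mutants and 8.65 ± 0.68 (SD, n = 6) in P15 controls. Btc was 2.15-fold lower in P15 mutants, a log2 difference of -1.10 (SE 0.21, 95% confidence interval -1.53 to -0.67, limma adjusted p = 0.000387), with 6 of 6 mutants below the control mean of their slide. On slide 4 alone the difference was -0.70 and its call ended (limma adjusted p = 0.278).

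Hbegf encodes heparin-binding EGF-like growth factor, a ligand of the EGF receptor and ERBB4 that keratinocytes release in wounds. Its probe (ILMN_2698449) had log2 signals of 7.57, 7.96 and 8.47 (lowest, median, highest) in P15 mutants, against 8.24, 8.35 and 8.67 in P15 controls. The ranges overlapped on slide 3 but not on slide 4. Hbegf was 1.34-fold lower in P15 mutants, a log2 difference of -0.42 (SE 0.14, limma adjusted p = 0.0329), with 5 of 6 mutants below the control mean of their slide. This call ended without P15 mutant 1, 2 or 5 or P15 control 1 or 3 (limma adjusted p from 0.0562 to 0.0847). It also ended under 7 other settings, among them median scaling (-0.27, limma adjusted p = 0.284) and slide 3 alone (-0.22, limma adjusted p = 0.629).

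Egfr was read by 4 probes, which the annotation assigns to a pair of RefSeq transcripts, A and B. The brightest, ILMN_2693922 of transcript A, had log2 signals of 11.10, 11.81 and 12.17 (lowest, median, highest) in P15 mutants, against 11.63, 11.84 and 11.96 in P15 controls. The mutants lay around the controls on both sides, and the log2 difference was -0.06 (SE 0.13, 95% confidence interval -0.32 to 0.21, limma adjusted p = 0.804). The transcript B probe ILMN_3052260 had 7.77, 8.15 and 8.43 in P15 mutants, against 8.27, 8.47 and 8.66 in P15 controls, with overlap on slide 3 and none on slide 4. It fell by 0.32 on the log2 scale (SE 0.11, limma adjusted p = 0.0419) in P15 mutants. That call ended without P15 mutant 1, 3, 5 or 6 or P15 control 1, 2, 3 or 6 (limma adjusted p from 0.0545 to 0.101) and under 8 other settings, among them median scaling (-0.17, limma adjusted p = 0.45) and each slide alone (limma adjusted p = 0.596 on slide 3 and 0.0879 on slide 4). The other transcript B probe, ILMN_3128725, had a log2 difference of -0.32 (SE 0.14, limma adjusted p = 0.107). The dim transcript A probe ILMN_2614432 was detected on 0 of 6 P15 mutants and 1 of 6 P15 controls, so no difference is given for it at this age.

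**Figure D1:**
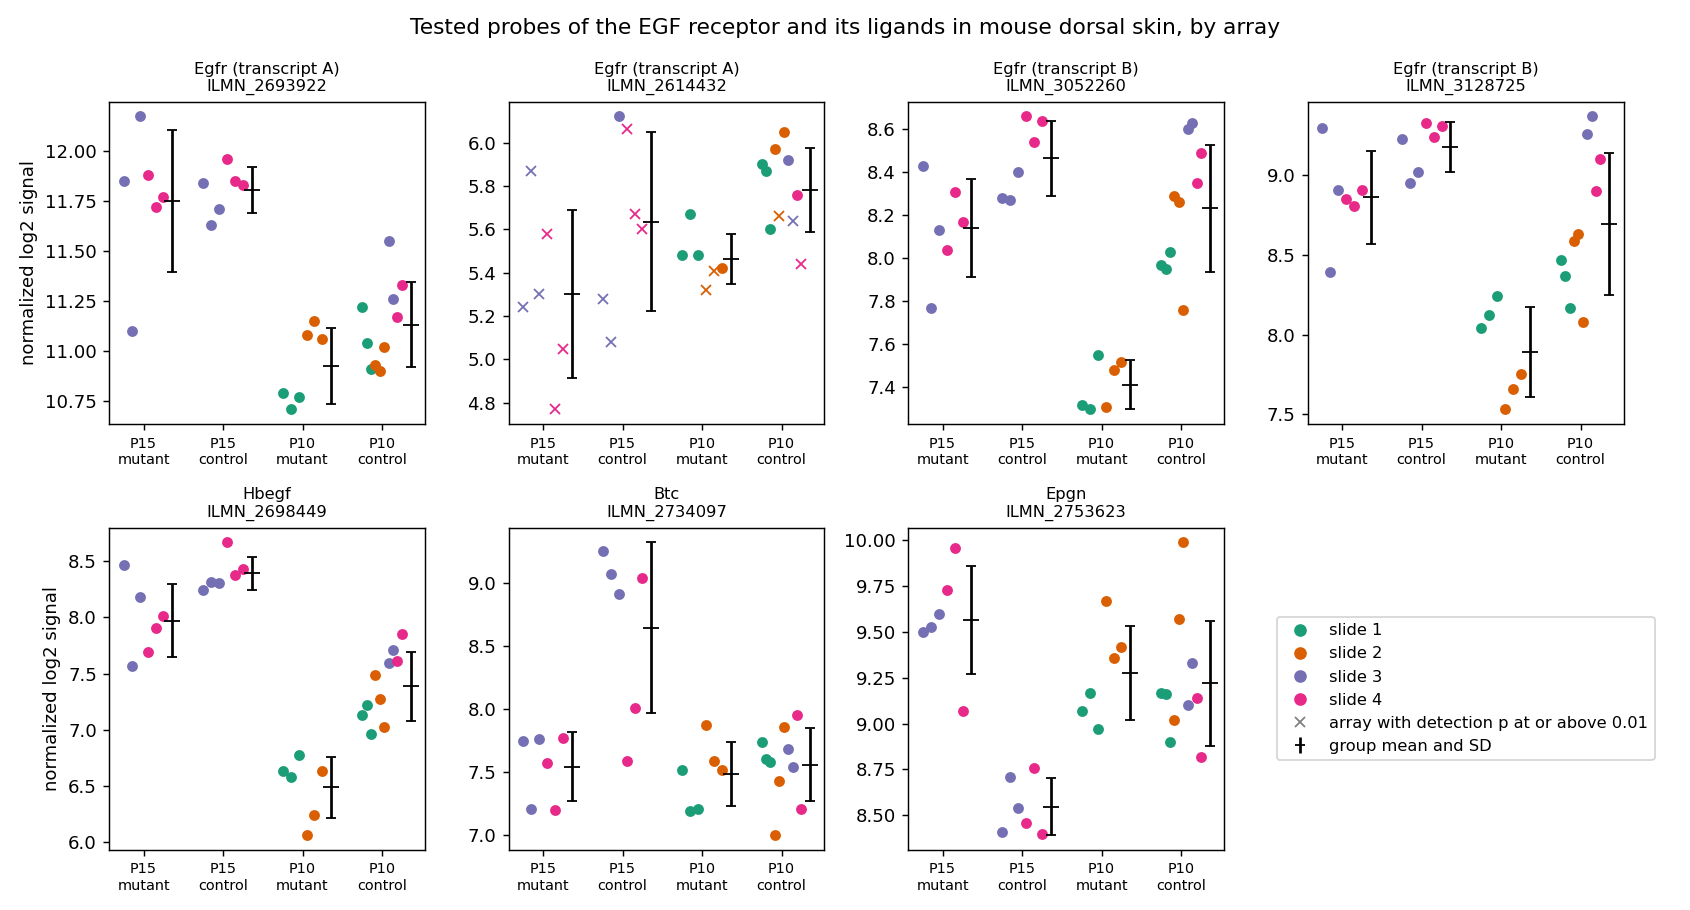
Normalized log2 signal of each of the 7 tested probes on each array (points, coloured by slide) in P15 mutants, P15 controls, P10 mutants and P10 controls, with the group mean and SD (black bars) and crosses where the probe was not detected. Each panel has its own scale. Epgn lay at 9.07 to 9.96 in P15 mutants and 8.40 to 8.76 in P15 controls, and Hbegf was lowest in P10 mutants, at 6.06 to 6.77.

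Marker genes of skin cells were set beside the P15 values. Each marker gene was read by its brightest tested probe. Of 6 basal keratinocyte markers 0 passed by that probe (median log2 difference 0.01), although a dimmer probe of Col17a1 fell (-0.53, limma adjusted p = 0.00303). Their summed normalized signal was 49126 to 54630 in P15 mutants, against 47205 to 55218 in P15 controls. All 5 melanocyte markers (Dct, Mlana, Pmel, Tyr and Tyrp1) rose, with sums of 6630 to 12902 in P15 mutants, against 2681 to 5594 in P15 controls. Like Epgn, these pigment cell genes were higher in P15 mutants, and a link between them was not tested. Of 4 tested sebaceous gland markers 2 fell (Awat2 and Mc5r), with sums of 2082 to 5824 in P15 mutants, against 4282 to 6070 in P15 controls, and Mogat1 was not tested. Of 5 tested markers of the suprabasal epidermis 1 fell (Lor), with sums of 41334 to 59863 in P15 mutants, against 41533 to 63945 in P15 controls. Flg had no matched probe. Of 5 markers of the outer root sheath and bulge 2 fell (Krt15 and Nfatc1), with sums of 30893 to 38770 in P15 mutants, against 32513 to 37699 in P15 controls. Of 3 tested leukocyte markers the T cell genes Cd3e and Cd3g fell (-1.38 and -1.17) and the macrophage gene Adgre1 rose (0.91), with sums of 158 to 302 in P15 mutants, against 272 to 460 in P15 controls. Cd68 and Csf1r had no matched probe, and Ptprc was detected on no array. Of 4 mast cell markers 2 rose (Cma1 and Tpsb2), with sums of 623 to 1360 in P15 mutants, against 554 to 871 in P15 controls. Dcn rose and Col1a1 fell among 6 fibroblast markers, Lep fell among 4 tested adipocyte markers and Mbp fell among 2 tested Schwann cell markers. The part of these cell types in the P15 results was not tested.

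The second comparison asked the same at P10. Hbegf and both transcript B probes of Egfr fell in P10 mutants, while Btc and Epgn did not pass. Of the 7 member probes 3 passed, all lower, and of all tested probes 17.9% passed, 8.93% higher and 8.96% lower. P10 mutants were compared with the 6 P10 controls on the same slides 1 and 2.

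Hbegf had log2 signals of 6.06, 6.60 and 6.77 (lowest, median, highest) in P10 mutants, against 6.96, 7.18 and 7.49 in the P10 controls of slides 1 and 2. Every mutant lay below every one of these controls. Hbegf was 1.62-fold lower in P10 mutants, a log2 difference of -0.70 (SE 0.14, 95% confidence interval -0.98 to -0.41, limma adjusted p = 0.000937). The difference was -0.44 on slide 1 and -0.95 on slide 2. The 4 P10 controls on slides 3 and 4 were higher still, at 7.59 to 7.85, so samples with the same group label differed between slides.

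The Egfr probe ILMN_3052260 had log2 signals of 7.30, 7.40 and 7.55 (lowest, median, highest) in P10 mutants, against 7.76, 8.00 and 8.29 in the P10 controls of slides 1 and 2. These ranges did not overlap. The log2 difference was -0.63 (SE 0.11, 95% confidence interval -0.86 to -0.40, limma adjusted p = 0.000316), 1.55-fold lower, and was -0.59 on slide 1 and -0.67 on slide 2. ILMN_3128725 had 7.53, 7.90 and 8.24 in P10 mutants, against 8.08, 8.42 and 8.63 in those controls. It was 1.41-fold lower (log2 difference -0.50, SE 0.14, limma adjusted p = 0.0136), with 6 of 6 mutants below the control mean of their slide. On slide 1 alone, where the ranges overlapped, its difference was -0.21 and the call ended (limma adjusted p = 0.16). As with Hbegf, the P10 controls of slides 3 and 4 had higher signals, at 8.35 to 8.63 for ILMN_3052260 and 8.90 to 9.37 for ILMN_3128725.

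The brightest Egfr probe, ILMN_2693922, had log2 signals of 10.71, 10.93 and 11.15 (lowest, median, highest) in P10 mutants, against 10.90, 10.98 and 11.22 in the P10 controls of slides 1 and 2. Mutants were lower on slide 1 (-0.30) and higher on slide 2 (0.14), and the difference over both was -0.08 (SE 0.13, limma adjusted p = 0.734). The dim probe ILMN_2614432 was detected on 4 of 6 P10 mutants and 7 of 10 P10 controls, with a log2 difference of -0.38 (SE 0.17, limma adjusted p = 0.12), -0.25 on slide 1 and -0.51 on slide 2. All 6 mutants lay below the control mean of their slide, and the difference passed with only the groups compared (limma adjusted p = 0.0118) and with array weights (limma adjusted p = 0.0106).

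Btc had log2 signals of 7.19, 7.52 and 7.87 (lowest, median, highest) in P10 mutants, against 7.00, 7.59 and 7.86 in the slide 1 and 2 P10 controls, and its log2 difference was -0.05 (95% confidence interval -0.48 to 0.38, limma adjusted p = 0.896). On slide 1 alone the Btc difference was -0.34, which passed (limma adjusted p = 0.0469), and on slide 2 it was 0.23. Epgn had 8.97, 9.26 and 9.67 in P10 mutants, against 8.90, 9.17 and 9.99 in those controls. The groups overlapped on both slides, and the log2 difference was -0.02 (95% confidence interval -0.32 to 0.27, limma adjusted p = 0.932).

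**Figure D2:**
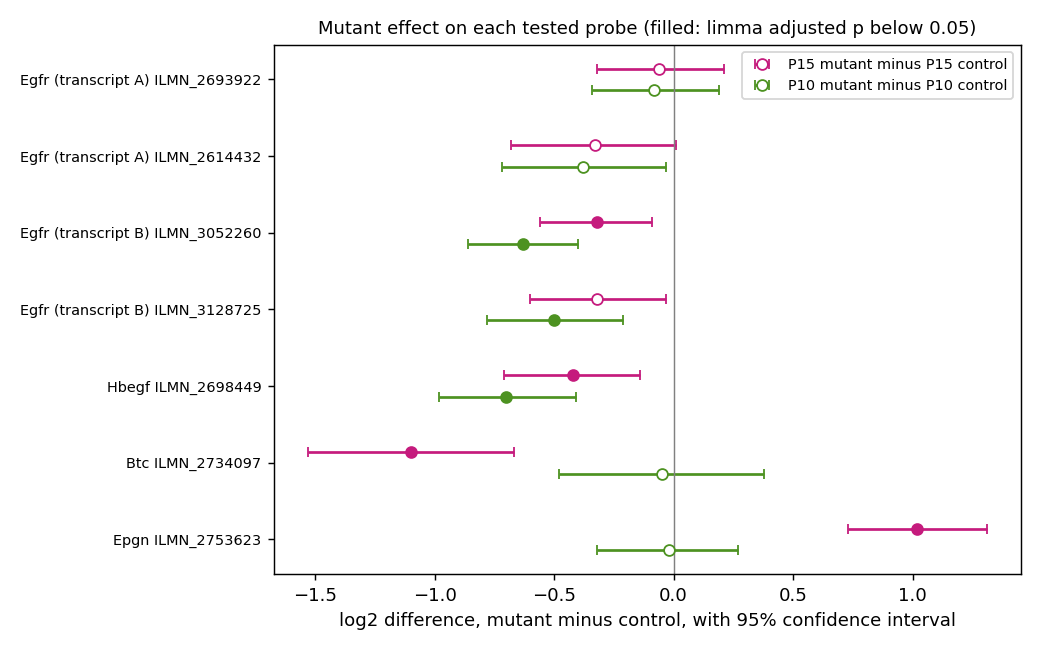
Log2 difference, mutant minus control, of each tested probe at P15 (upper point of each pair) and P10 (lower point), with 95% confidence intervals from limma. ILMN_2614432 was at background on 11 of 12 P15 arrays, and its P15 point is not a measured difference. Filled points passed the threshold: Epgn (1.02), Btc (-1.10), Hbegf (-0.42) and ILMN_3052260 (-0.32) at P15, and Hbegf (-0.70), ILMN_3052260 (-0.63) and ILMN_3128725 (-0.50) at P10.

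Markers of several cell types moved at P10 beside the falls of Hbegf and Egfr, most of them of cells beneath the epidermis. All 6 fibroblast markers rose (Col1a1, Col1a2, Col3a1, Dcn, Lum and Pdgfra), with summed normalized signals of 23695 to 33826 in P10 mutants, against 15342 to 19624 in the P10 controls of slides 1 and 2. All 4 mast cell markers rose as well, with sums of 2481 to 3766 in P10 mutants, against 1316 to 2497 in those controls. These fibroblast and mast cell markers were thus higher in P10 mutants, in which Hbegf was lower. Of 4 tested adipocyte markers 3 rose (Adipoq, Plin1 and Plin4), with sums of 9655 to 15808 in P10 mutants, against 4885 to 10763 in those controls, while Cfd had no matched probe. Of 7 skeletal muscle markers 4 rose (Ckm, Myh4, Mylpf and Tnnt3), with sums of 33277 to 60952 in P10 mutants, against 10541 to 66955 in those controls. The muscle ranges overlapped. Of 5 tested markers of hair matrix and shaft 3 rose (Krt35, Lef1 and Msx2), with sums of 17816 to 21650 in P10 mutants, against 14472 to 20975 in those controls, and Krt85 had no matched probe. Sox9 fell (-0.70, limma adjusted p = 0.0143) among 5 markers of the outer root sheath and bulge, whose sums were 25021 to 34319 in P10 mutants, against 23393 to 36222 in those controls. Of 4 tested sebaceous gland markers 1 fell (Mc5r, -0.97), with sums of 7602 to 9240 in P10 mutants, against 4592 to 7798 in those controls. Of 3 tested leukocyte markers Cd3e and Cd3g fell (-1.05 and -1.30) and Adgre1 rose (1.15), with sums of 292 to 393 in P10 mutants, against 281 to 362 in those controls. Tek fell among 3 tested endothelial markers, with sums of 389 to 463 in P10 mutants, against 433 to 566 in those controls. Pmp22 rose among 2 tested Schwann cell markers and Tyrp1 among 5 melanocyte markers. By their brightest probes the basal keratinocyte markers again gave 0 calls of 6 (median log2 difference -0.01), with sums of 33925 to 40819 in P10 mutants, against 35222 to 43832 in those controls. Array brightness moved with genotype too, with median raw signals of 105 to 133 in P10 mutants, against 83.3 to 113 in those controls. The part of these cells and of brightness in the falls of Hbegf and Egfr was not tested.

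The third comparison tested whether mutant effects differed between the ages. Epgn and Btc differed, in opposite directions. Of the 7 member probes these 2 passed, against 3.47% of all tested probes, 1.68% higher and 1.79% lower. For Epgn the P15 effect exceeded the P10 effect by 1.04 (SE 0.20, 95% confidence interval 0.63 to 1.45, limma adjusted p = 0.00339). For Btc the P15 effect minus the P10 effect was -1.05 (SE 0.30, 95% confidence interval -1.66 to -0.44, limma adjusted p = 0.0453). The Btc call ended when any of 19 of the 28 arrays was left out (limma adjusted p from 0.051 to 0.0876), namely P15 mutants 2, 4, 5 and 6, P15 controls 3 to 6, P10 mutants 1, 2, 4, 5 and 6 and P10 controls 3 and 6 to 10. It also ended with median scaling (limma adjusted p = 0.104), the authors' processed values (0.0662), no filter on dim probes (0.09) and no slide term (0.0599). Hbegf did not pass (difference 0.28, 95% confidence interval -0.13 to 0.68, limma adjusted p = 0.51). ILMN_3052260 did not pass either (0.31, 95% confidence interval -0.02 to 0.63, limma adjusted p = 0.326), nor did ILMN_3128725 (0.18, limma adjusted p = 0.698).

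Change with age was then followed in each genotype, as P15 minus P10. In controls Hbegf, Btc and the brightest Egfr probe rose and Epgn fell. This change was taken within slides 3 and 4, where 6 P15 controls stood beside 4 P10 controls, and 4 of 7 member probes passed, 3 higher and 1 lower, against 21.5% of all tested probes (10.6% higher and 10.8% lower). Epgn had log2 signals of 8.40, 8.50 and 8.76 in P15 controls (lowest, median, highest), against 9.14, 9.33, 8.82 and 9.10 in the 4 P10 controls of slides 3 and 4. The ages did not overlap. It fell by 0.55 on the log2 scale (SE 0.16, limma adjusted p = 0.0132), a call that ended without P10 control 4 (limma adjusted p = 0.0592) and on each slide alone (limma adjusted p = 0.0945 on slide 3 and 0.304 on slide 4). Btc rose by 1.05 (SE 0.23, limma adjusted p = 0.00203), by 1.47 on slide 3, where the ages were apart, and by 0.63 on slide 4, where they overlapped and the call ended (limma adjusted p = 0.335). Hbegf rose by 0.70 (SE 0.16, limma adjusted p = 0.00203), and its P15 controls lay above the P10 controls on both slides. With median scaling the Hbegf change was 0.40 and its call ended (limma adjusted p = 0.0962), as it did on slide 3 alone (limma adjusted p = 0.214). ILMN_2693922 rose by 0.47 (SE 0.14, limma adjusted p = 0.0186), with no overlap of the ages on either slide. That call ended without P10 control 1 or 4 (limma adjusted p from 0.0503 to 0.0727), with median scaling (0.24, limma adjusted p = 0.357) and on slide 3 alone (limma adjusted p = 0.614). The transcript B probes did not pass (log2 differences -0.05 and 0.02), but these values average opposite changes on the slides. ILMN_3052260 had -0.30 on slide 3 and 0.19 on slide 4, and ILMN_3128725 had -0.25 and 0.29. The ages did not overlap on either slide for either probe. With no slide term ILMN_3128725 passed (0.49, limma adjusted p = 0.0223).

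In mutants only Hbegf passed of the 7 probes, against 11.7% of all tested probes (5.5% higher and 6.19% lower). No slide held mutants of both ages, so this change rests on the P10 controls that link the slides. Hbegf rose by 0.97 (SE 0.21, limma adjusted p = 0.00263). Btc had a log2 difference of 0.00 (95% confidence interval -0.65 to 0.64, limma adjusted p = 0.999) and Epgn of 0.49 (95% confidence interval 0.06 to 0.93, limma adjusted p = 0.129). ILMN_2693922 had a difference of 0.49 (limma adjusted p = 0.0912), which passed without P15 mutant replicate 5 (0.63, limma adjusted p = 0.00544), with no slide term (0.82), with the slide as a random block (0.66) and with array weights (0.61). The transcript B probes had differences of 0.25 and 0.20 and did not pass, but moved to 0.73 and 0.97 with no slide term (limma adjusted p = 0.000124 and 0.000158) and to 0.50 and 0.60 with the random block (limma adjusted p = 0.0191 and 0.0316). Epgn passed without P10 control 8 (0.60, limma adjusted p = 0.0377) and with array weights (0.62, limma adjusted p = 0.0385). The contrast shares the P15 mutants and the P10 mutants with the mutant effects above.

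Marker genes changed with age as well. In controls all 5 melanocyte markers fell (median log2 difference -1.41), with sums of 2681 to 5594 in P15 controls, against 9145 to 14031 in the 10 P10 controls. All 4 mast cell markers fell too (median -1.29), with sums of 554 to 871 in P15 controls, against 1316 to 2497 in P10 controls. So did 3 of 6 fibroblast markers (median -1.05), 3 of 4 tested adipocyte markers (median -0.58) and 4 of 7 skeletal muscle markers (median -2.03). In mutants all 6 fibroblast markers fell (median -2.24), with sums of 6184 to 11678 in P15 mutants, against 23695 to 33826 in P10 mutants. All 4 tested adipocyte markers (median -1.98) and 3 of 4 mast cell markers (median -1.65) fell as well. Of 6 basal keratinocyte markers 1 rose in each genotype, with sums of 47205 to 55218 in P15 controls, against 35222 to 46014 in P10 controls. The P10 control sums include arrays of slides 1 and 2, and no slide held mutants of both ages. Age and slide are therefore mixed in these sums, whereas the calls and medians come from the fit with slide terms. The part of these cells in the age changes of Hbegf, Btc, Epgn and Egfr was not tested.

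By mean log2 signal over all arrays of a group, Epgn was ordered P15 mutant (9.56), P10 mutant (9.28), P10 control (9.22) and P15 control (8.55). The P10 pair did not pass, and its order is not settled, since the P10 controls sharing slides with the P10 mutants averaged 9.30. Neither did the age change in mutants pass. Btc was ordered P15 control (8.65), P10 control (7.56), P15 mutant (7.54) and P10 mutant (7.48). The lowest P15 control (7.59) lay below the highest P10 control (7.95), P15 mutant (7.77) and P10 mutant (7.87). Neither the P10 pair of Btc nor its age change in mutants passed. Hbegf was ordered P15 control (8.39), P15 mutant (7.97), P10 control (7.39) and P10 mutant (6.48). Both pairs of one age passed, the P15 pair with the limits given above, and P15 mutants against P10 controls were not tested. ILMN_2693922 was ordered P15 control (11.80), P15 mutant (11.75), P10 control (11.13) and P10 mutant (10.93), and neither pair of one age differed by a call.

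The remaining ligand probes were at or near background. Ereg, which encodes epiregulin, had 2 probes, detected on 0 of 28 arrays. Tgfa, which encodes TGF alpha, was detected on 1 of 28 arrays, a P15 mutant. Egf was detected on 4 of 28 arrays, 3 of the 6 P10 mutants and 1 of the 10 P10 controls. Signals below the detection threshold have no order, so no difference is given for these genes.

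Because the Egfr probes disagreed, each was set against ILMN_2693922, the brightest, within its own array. A factor that shifts both probes alike drops out of this difference, but one that acts unlike on bright and dim probes does not. In P10 controls ILMN_2693922 averaged 11.00 on slides 1 and 2 and 11.33 on slides 3 and 4, against 8.39 and 9.16 for ILMN_3128725. This was done on the same arrays that showed the disagreement, so the p-values that follow describe it and are no independent test. For ILMN_3052260 the log2 difference between probes was -4.04, -3.51 and -3.32 (lowest, median, highest) in P15 mutants, against -3.56, -3.31 and -3.19 in P15 controls. At P10 it was -3.77, -3.51 and -3.23 in mutants, against -3.26, -2.98 and -2.64 in the controls of slides 1 and 2. P10 mutants thus sat lower than controls with a small overlap, by -0.55 (exact permutation within slides, two-sided p = 0.01, 0.06 after Benjamini-Hochberg adjustment over 6 tests). At P15 the shift was -0.27 (exact permutation p = 0.075, adjusted 0.102). For ILMN_3128725 the shift was -0.26 at P15 (exact permutation p = 0.035, adjusted 0.102) and -0.42 at P10 (exact permutation p = 0.085, adjusted 0.102). ILMN_2614432, at background on most P15 arrays, had an exact permutation p of 0.375 at P15 (adjusted 0.375) and a shift of -0.30 at P10 (exact permutation p = 0.075, adjusted 0.102). The 400 arrangements allow a smallest p of 0.005. Of the 6 tests 2 were below 0.05 before adjustment and 0 after it. In alternatives chosen after seeing the data, ILMN_3052260 at P10 passed with the authors' processed values (-0.59, adjusted exact permutation p = 0.03). It also passed without P10 control 5 (-0.60, adjusted exact permutation p = 0.03). Without P15 mutant 4, ILMN_3128725 at P15 passed (-0.33, adjusted exact permutation p = 0.03). The P10 shift of ILMN_3052260 uses no P15 array and stayed at -0.55 there. Its adjusted p moved below the threshold only through the adjustment over the 6 tests.

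**Figure D3:**
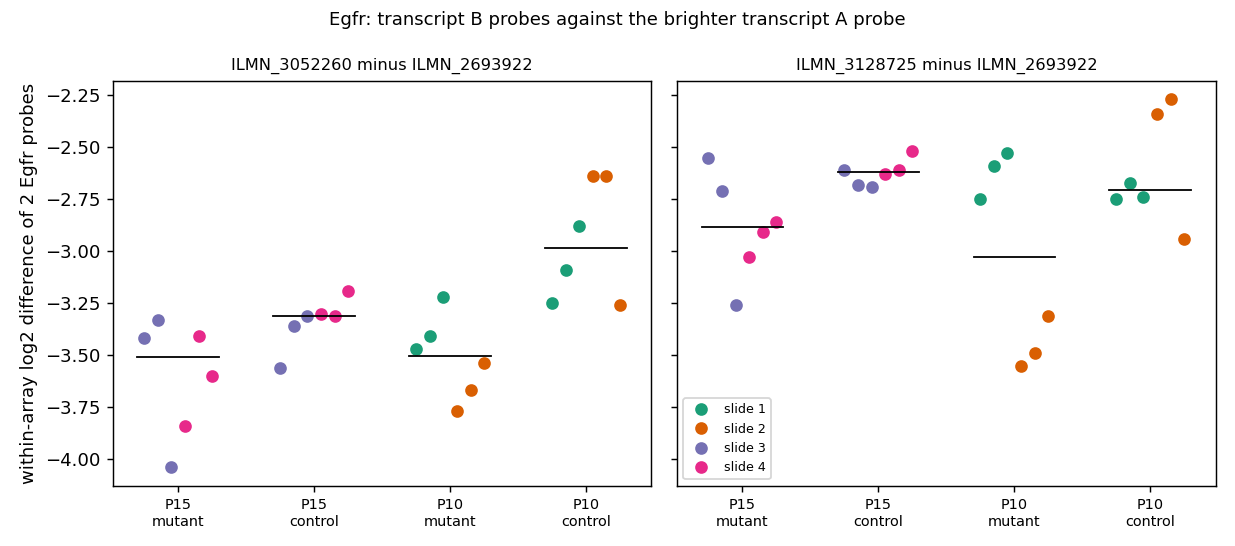
Within-array log2 difference between a transcript B probe and the brighter transcript A probe ILMN_2693922 of Egfr, each point an array coloured by slide, with the group median (line), in P15 mutants, P15 controls, P10 mutants and the P10 controls of slides 1 and 2. For ILMN_3052260 the medians were -3.51 in P15 mutants and -3.31 in P15 controls, and -3.51 in P10 mutants and -2.98 in P10 controls.

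Across the 28 arrays Hbegf tracked the transcript B probes of Egfr more closely than any other member. The Pearson correlation of log2 signals with ILMN_3128725 was 0.92, and 0.79 once the fitted terms for group and slide were removed. With ILMN_3052260 it was 0.86 and 0.70. The transcript B probes correlated with each other at 0.93 and 0.80. Hbegf and ILMN_2693922 had 0.82, but 0.22 after removal of those terms. Epgn and Btc correlated at -0.54, and at 0.08 after that removal. Group and slide were removed as separate terms, so a mutant effect that differs between slides stays in these correlations. At P10 that effect was -0.44 on slide 1 and -0.95 on slide 2 for Hbegf, and -0.21 and -0.79 for ILMN_3128725. All arrays of a slide share its processing and brightness, and these values are given as a description.

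The genes of other symbol whose signals followed a member most closely over the 28 arrays were named for the 3 member genes with the smallest p at P15. These correlations include the differences between groups, so the choice itself favours genes whose group differences resemble those of the member. For Epgn they were Akr1cl (r 0.75), the transporter gene Abcb9 (r 0.74) and Aqp3, a water and glycerol channel of keratinocytes (r 0.71). Akr1cl had log2 differences of 1.22 at P15 (limma adjusted p = 5.65e-06) and 0.68 at P10 (limma adjusted p = 0.00527), whereas Aqp3 had 0.94 at P15 (limma adjusted p = 6.58e-05) and 0.37 at P10 (limma adjusted p = 0.0926). For Btc they were the lipase gene Lipn (r 0.88), the late cornified envelope gene Lce1m (r 0.86) and the cytokine gene Il34 (r 0.84). These had P15 differences of -0.72, -0.96 and -0.97 and P10 differences of -0.11, -0.05 and -0.01. For Hbegf they were Palmd (r 0.97), Trp53inp2 (r 0.95) and the membrane protease gene Tmprss2 (r 0.94), with P15 differences of -0.47, -0.34 and -0.71 and P10 differences of -0.61, -0.42 and -1.11. After removal of the fitted terms for group and slide the Btc genes kept correlations of 0.83, 0.73 and 0.59, and the Epgn genes 0.30, 0.32 and 0.15.

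Other genes of the pathway were read from 8 lists of 94 genes, of which 76 had a probe and 59 a tested one. Each gene was represented by its brightest tested probe. At P15 2 rose and 12 fell (23.7% called, median log2 difference 0.01), against 19.8% and a median of 0.02 over all probes. At P10 3 rose and 9 fell (20.3% called, median -0.06), against 17.9% and a median of -0.02 over all probes. Of these genes 3.39% rose and 20.3% fell at P15, against 9.07% and 10.7% of all probes, and 5.08% rose and 15.3% fell at P10, against 8.93% and 8.96%. The lists were chosen with earlier results of these data known, so these shares are only a description. They count the brightest probe of each gene, whereas the shares of all probes also count dimmer and repeated probes. A shift of the pathway as a whole was not tested. Over the alternatives the count of pathway genes called ran from 2 (slide 3 alone) to 15 at P15 and from 3 (slide 2 alone) to 34 (array weights) at P10. Of single arrays, leaving out P15 control 4 gave 9 at P15 and leaving out P10 mutant 2 gave 7 at P10. The genes that ERK signalling induces held the largest falls.

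Of 11 tested ERK-induced genes 4 fell and 1 rose at P15 (median -0.02), and 4 fell and 0 rose at P10 (median -0.24). Egr1, an immediate early transcription factor gene, had log2 signals of 10.90, 11.15 and 11.39 in P15 mutants (lowest, median, highest), against 12.34, 12.63 and 12.67 in P15 controls. At P10 it had 10.41, 10.79 and 11.20 in mutants, against 12.05, 12.52 and 12.61 in the controls of slides 1 and 2. Its groups were far apart at both ages. The log2 difference was -1.40 at P15 (SE 0.12, limma adjusted p = 3.45e-09) and -1.66 at P10 (SE 0.12, limma adjusted p = 4.57e-10). Dusp6 encodes a phosphatase that switches ERK off. It fell by 0.91 at P15 (limma adjusted p = 4.85e-06), with 9.74 to 10.29 in mutants against 10.65 to 10.99 in controls, and by 0.82 at P10 (limma adjusted p = 3.96e-05), with 10.29 to 10.56 in mutants against 10.95 to 11.65 in those controls. Its call at P15 ended on slide 3 alone (limma adjusted p = 0.088). Phlda1 fell by 0.69 at P15 (limma adjusted p = 0.000123, 0.184 on slide 4 alone) and 0.75 at P10 (limma adjusted p = 8.5e-05). The phosphatase gene Dusp4 fell by 0.91 at P15 (limma adjusted p = 6.92e-05, 0.0514 on slide 3 alone), with 3 of 6 mutants detected, and by 0.42 at P10, where its call ended without any of 19 arrays (limma adjusted p from 0.0502 to 0.133) and under 5 other settings. The cell cycle gene Ccnd1 rose by 0.43 at P15 (limma adjusted p = 0.00834) and did not pass at P10 (-0.14). Phlda1 and Ccnd1 at P15 and Dusp4 at P10 were named after their values were seen.

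**Figure D4:**
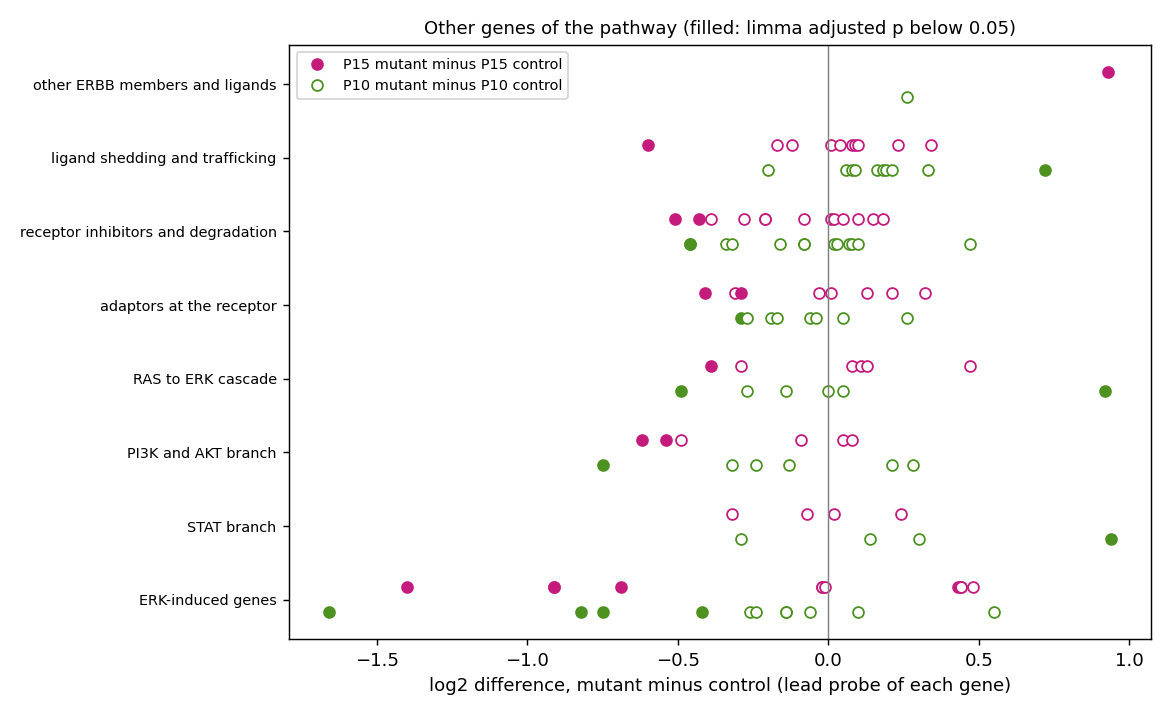
Log2 difference, mutant minus control, of the lead probe of each tested gene in 8 pathway lists at P15 and P10 (filled where the limma adjusted p was below 0.05). The leftmost points are Egr1, at -1.40 at P15 and -1.66 at P10, and Dusp4 and Dusp6 coincide at -0.91 at P15.

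Among the other ERBB ligands Nrg1, which encodes a ligand of ERBB3 and ERBB4, was the only one of 5 listed genes with a tested probe. It was detected on 5 of 6 P15 mutants and 1 of 6 P15 controls, so its level in P15 controls was mostly below detection and the size of the difference was not measured well. The fitted log2 difference was 0.93 (SE 0.24, limma adjusted p = 0.00634), a call that ended on slide 3 alone (limma adjusted p = 0.405) and with only the P15 groups in the fit (limma adjusted p = 0.0535). At P10 its difference was 0.26 (limma adjusted p = 0.495). Of 10 tested genes for ligand shedding and trafficking, 1 fell at P15, the metalloprotease gene Adam19 (-0.60, limma adjusted p = 0.00644), and 1 rose at P10, Adam9 (0.72, limma adjusted p = 0.00125). The Adam19 call ended on each slide alone (limma adjusted p = 0.118 on slide 3 and 0.221 on slide 4), and the Adam9 call on slide 2 alone (limma adjusted p = 0.0944). A second probe of Timp3, which encodes an inhibitor of these proteases, fell at P15 (-0.78), whereas its brighter probe did not pass (-0.12).

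Of 13 tested genes for receptor inhibition and degradation 2 fell at P15 and 2 at P10. Errfi1 encodes MIG6, which binds and inhibits the receptor kinase. It had 10.96, 11.10 and 11.30 (lowest, median, highest) in P10 mutants, against 11.33, 11.58 and 11.86 in the P10 controls of slides 1 and 2. Those ranges did not overlap, and it fell by 0.46 (SE 0.13, limma adjusted p = 0.0164), a call that ended without P10 mutant 2 (limma adjusted p = 0.0529) and on slide 2 alone (limma adjusted p = 0.326). Socs4, a suppressor of cytokine and EGF receptor signalling, fell by 0.46 at P10 and by 0.43 at P15. The P10 call ended without P10 mutant 1, 2, 3 or 4 or P10 control 5, 6, 9 or 10 (limma adjusted p from 0.0538 to 0.107) and under 4 other settings. The P15 call ended without any of 20 arrays (limma adjusted p from 0.0503 to 0.14) and under 9 other settings. The deubiquitinase gene Usp8 fell by 0.51 at P15, a call that ended without P15 mutant 2, 3 or 5 or P15 control 1, 2 or 4 (limma adjusted p from 0.0602 to 0.0929) and under 7 other settings. Its other probe fell by 0.58 (limma adjusted p = 0.00859).

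Among 8 tested adaptor genes 2 fell at P15 and 1 at P10. Grb7 fell by 0.41 at P15 (limma adjusted p = 0.0139), a call that ended on each slide alone (limma adjusted p = 0.207 and 0.258) and with median scaling (limma adjusted p = 0.0826). Ptpn11, which encodes SHP2, fell by 0.29 at each age. Its P15 call ended without P15 mutant 5 or P15 control 1, 2, 4 or 5 (limma adjusted p from 0.0505 to 0.0712) and under 6 other settings. Its P10 call ended without P10 mutant 1, 2, 3 or 6 or P10 control 5, 6 or 10 (limma adjusted p from 0.0519 to 0.0785) and on slide 2 alone (limma adjusted p = 0.294). Of 6 tested genes of the RAS to ERK cascade 1 fell at P15, and 1 rose and 1 fell at P10. The kinase gene Rps6ka3 fell by 0.49 at P10 (limma adjusted p = 0.014), a call that ended on slide 2 alone and with median scaling (limma adjusted p from 0.0616 to 0.0867), and by 0.39 at P15, where the call ended without any of 21 arrays (limma adjusted p from 0.0505 to 0.119) and under 9 other settings. Map2k1, which encodes the kinase MEK1, rose by 0.92 at P10 (SE 0.27, limma adjusted p = 0.0184), a call that ended without P10 mutant 1 or 2 or P10 control 6 (limma adjusted p from 0.0508 to 0.0591) or on slide 2 alone (limma adjusted p = 0.404).

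Of 6 tested genes of the PI3 kinase and AKT branch 2 fell at P15 and 1 at P10. The catalytic subunit gene Pik3cb fell by 0.75 at P10 (SE 0.17, limma adjusted p = 0.00364), a call that ended on slide 2 alone (-0.21, limma adjusted p = 0.624). At P15 it fell by 0.54, a call that ended without P15 mutant 2 or 5 or P15 control 1, 4 or 5 (limma adjusted p from 0.0513 to 0.0847) and under 5 other settings. The regulatory subunit gene Pik3r3 fell by 0.62 at P15 (limma adjusted p = 0.00853), and this call ended on each slide alone (limma adjusted p = 0.235 on slide 3 and 0.0911 on slide 4). Of 4 tested genes of the STAT branch 0 passed at P15 and 1 rose at P10. Jak1 was detected on 6 of 6 P10 mutants and 2 of 10 P10 controls, so it passed the filter on low signals largely through the mutants, and the size of its difference was not measured well. The fitted log2 difference was 0.94 (SE 0.20, limma adjusted p = 0.00186), a call that ended on slide 2 alone (limma adjusted p = 0.572).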

How the data were processed

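Bead signals and detection p-values of 25697 probes on 28 arrays were used as deposited, per the file headers. These signals are unnormalized linear intensity values, and the authors' second deposited table holds processed intensity values of the same arrays, of which 25.6% were below 0. The steps behind these were not given in the sources used here. The submitters' processing notes name GenomeStudio without a version. The platform annotation gave 23978 probes 1 symbol, 0 several and 1719 none.

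Signals were background-corrected by normexp from the detection p-values (offset 16), then quantile-normalized on the log2 scale. Each of 12834 tested probes was fitted with 4 groups and 4 slides as terms (limma 3.58.1 in R 4.3.3, 21 residual degrees of freedom), with Benjamini-Hochberg adjustment over all of them. Group means and SDs were taken over normalized log2 signals, whereas differences come from the fit. Marker sums are of normalized signals on a linear scale. All 10 members were named, and from each pathway list up to 3 called genes with the smallest p at each age. Members and lists were chosen with earlier results of these data known. The data name no genome build. Alternatives covered background correction, scaling, the authors' processed values (floor 16), filters, slide terms, array weights, single slides, 1 probe per gene and each array left out.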

Additional observations from a re-analysis of the deposited data

Results flagged for a closer look

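The mutant effect on Btc differed between ages by -1.05 on the log2 scale (P15 effect minus P10 effect, SE 0.30, limma adjusted p = 0.0453). The term for this difference in the fit singled it out. The effect was -1.10 at P15 and -0.05 at P10. At P15 it was -1.51 on slide 3 and -0.70 on slide 4, and at P10 it was -0.34 on slide 1 and 0.23 on slide 2.

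The mutant effect on Epgn differed between ages by 1.04 (P15 effect minus P10 effect, SE 0.20, limma adjusted p = 0.00339), by the same term. The effect was 1.02 at P15 and -0.02 at P10, and on single slides it was 0.99 and 1.05 at P15 and -0.01 and -0.04 at P10. Both differences compare arrays of slides 3 and 4 with arrays of slides 1 and 2. In the 28 checks of a probe in a group for 1 sample far from the others (Dixon's test), 0 stood out.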

How the results depend on the processing

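Over 43 alternatives, 1359 differences of member probes were recomputed. Of these 1280 kept their side of the threshold, 63 calls ended, 16 appeared and 0 that passed in either fit changed direction. Differences that passed in neither fit did change sign, such as Epgn at P10, which ran from -0.15 to 0.16. The Epgn effect at P15 passed under all 41 alternatives that gave it (0.90 to 1.19), and at P10 Hbegf (-1.04 to -0.44) and ILMN_3052260 (-0.92 to -0.48) did so too. Of member probes called at P15, 4 in the reported fit, the count was 2 with median scaling, without the slide term, on slide 3 or slide 4 alone, with only the groups compared and with the replicate block, and 2 to 5 when 1 array was left out. At P10, with 3 called, taking 1 probe per gene left 1, and leaving out 1 array always 3. For the difference between ages, with 2 called, median scaling, the authors' processed values, no filter and no slide term each gave 1, and leaving out 1 array 1 or 2. For age in controls, with 4 called, median scaling gave 2, slide 3 alone 1, slide 4 alone 2 and leaving out 1 array 2 to 4. For age in mutants, with 1 called, no slide term and the random slide block gave 4, array weights 3 and leaving out 1 array 1 or 2. Without P15 mutant replicate 5 the P15 effects were 1.03 for Epgn, -0.99 for Btc, -0.34 for Hbegf and -0.25 for ILMN_3052260. The causes were not tested. Replicate numbers were not taken as pairs, since only 3 of 12 same-numbered sets correlated above 0.1 (-0.20 to 0.41). At P10 no same-numbered mutant and control shared a slide, so those sets say little about pairing. With the replicate block 2 member probes passed at P15, 3 at P10 and 2 for the difference. That fit had no slide term, so its P10 effects and differences between ages also hold differences between slides. The ranges over alternatives given above include it. No such fit was possible for the age changes, where the block could not be separated from age. Median scaling moved the median of all probes to -0.235 for age in controls and -0.155 for age in mutants, against -0.009 and 0.016. With that scaling the share of calls that were higher was 8.56%, against 49.5%, for age in controls, 13.9%, against 47%, for age in mutants, and 61.5%, against 45.8%, for the P15 effect. Over all probes, calls ran from 1156 (slide 2 alone) to 6023 (array weights) at P10, against 2296, from 364 (slide 3 alone) to 2629 (1 array left out) at P15, against 2539, from 241 to 1900 for the difference, against 445, from 394 to 5135 for age in controls, against 2755, and from 1011 to 5702 for age in mutants, against 1501. Ereg, Tgfa and Egf were at background on most arrays, and low signal over background leaves them without a measured difference.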
